A study of Arabidopsis thaliana with 4 samples.

Results

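The nuclear genes of the thylakoid light reactions were followed in *Arabidopsis thaliana* seedlings. The set held 51 loci, chosen by function from their Arabidopsis gene identifiers, of 33664 features measured. It held 21 antenna genes (LHCA and LHCB), 21 nuclear genes of the photosystem cores (PSB and PSA), 8 genes of electron carriers and the ATP synthase, and PSBS, the sensor of energy quenching. Antenna genes were set against core genes.

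Light-harvesting proteins bind chlorophyll and pass absorbed energy to a photosystem core, where charge separation takes place. LHCB1, LHCB2 and LHCB3 form the trimeric antenna of photosystem II, part of which is mobile. LHCB4, LHCB5 and LHCB6 are its monomeric linker antennae, and LHCA proteins form the belt of photosystem I. All 51 genes are read in the nucleus and their products are imported into the chloroplast, where they join subunits encoded by the plastid.

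The mutant group was trm4b-4 in the Col-0 ecotype, a line named for TRM4B, an enzyme that methylates cytosines in RNA. The control group was Col-0 wild type. Both groups were whole seedlings of 9 days, raised on MS medium with 16 h light and 8 h dark at 23 ± 2 °C, with 2 poly-A RNA-seq libraries each. The sources used here do not give the nature of the allele or the hour of harvest. Nor do they say that replicate libraries were grown apart, so the p-values rest on a spread that may be technical.

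TRM4B itself went against the label. TRM4B (taken as AT2G22400, chromosome 2, 9504659 to 9508895, minus strand, TAIR10.1) had 86.3 and 87.1 FPKM (fragments scaled by gene length and by the total of the library) in libraries labelled trm4b-4, against 29.7 and 28.9 FPKM in wild-type libraries. The fitted log2 difference was 1.53 (SE 0.034, limma adjusted p = 2.4e-08), so every direction below is that of the libraries labelled trm4b-4. The sources used here do not say which part of the gene the allele alters, so this total checks the label only in part. The deposited FPKM corresponded to 21931590 and 23068982 fragments in libraries labelled trm4b-4, against 26390263 and 23782269 in wild-type libraries, and 18785 to 18888 features reached 1 FPKM in a library.

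The LHCB1 family carried most of the antenna signal, and its 5 copies are close enough that their identity matters for the values. LHCB1.1 (AT1G29920), LHCB1.2 (AT1G29910) and LHCB1.3 (AT1G29930) lie side by side on chromosome 1 between 10472280 and 10479114, each as a single exon. LHCB1.4 (AT2G34430) and LHCB1.5 (AT2G34420) lie beside each other on chromosome 2 between 14522524 and 14525918. In RefSeq TAIR10.1 the coding sequences of LHCB1.1 and LHCB1.2 were 95.6% identical, those of LHCB1.1 and LHCB1.3 96.1%, and those of LHCB1.4 and LHCB1.5 91.4%. The stretch below, coding bases 145 to 264 counted from the A of the start codon, compares the 3 copies on chromosome 1. It was picked as the first stretch of its length with the most differences, so the copies look more distinct here than over the whole coding sequence. Capitals mark the 11 positions in this stretch, of 47 over the 804 coding bases, at which the 3 copies are not all alike.
LHCB1.1: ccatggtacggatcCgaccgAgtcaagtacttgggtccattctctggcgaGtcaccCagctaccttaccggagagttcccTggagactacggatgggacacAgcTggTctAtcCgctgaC
LHCB1.2: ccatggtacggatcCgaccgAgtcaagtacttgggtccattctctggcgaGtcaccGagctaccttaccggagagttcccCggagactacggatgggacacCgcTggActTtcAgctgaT
LHCB1.3: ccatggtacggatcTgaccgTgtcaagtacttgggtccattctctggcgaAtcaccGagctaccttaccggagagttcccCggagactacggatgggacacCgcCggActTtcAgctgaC
Of all 100-base windows in the annotated transcript, 4.44% were found unchanged in another gene for LHCB1.1, 1.51% for LHCB1.2, 3.27% for LHCB1.3, 3.30% for LHCB1.4 and 4.23% for LHCB1.5. The share was higher for LHCB2.1 (9.87%) and LHCB2.2 (12.4%), which resemble each other. These 7 genes were the members with any shared window, and 44 had none. The sources used here do not say how reads matching several genes were counted, so the split between copies is less certain than the family sums.

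Upstream sequence is shown for the LHCB1 copies that rose most and least, for LHCB1.5 of the other cluster, for LHCA4, and for a core gene that was not called. Each is the 250 bases before the RefSeq start, read towards the gene, in TAIR10.1. Capitals mark the G-box core CACGTG, a sequence that clock factors are known to bind, AAAAATCT, or a binding sequence of the NF-Y factors, CCAATC, on either strand. The regions are chr1:10475970-10476219 (minus strand) for LHCB1.1, chr1:10477635-10477884 (plus strand) for LHCB1.3, chr2:14523569-14523818 (minus strand) for LHCB1.5, chr3:17495034-17495283 (minus strand) for LHCA4 and chr4:14204062-14204311 (minus strand) for PSAE1, a core gene with no motif in this window.
LHCB1.1: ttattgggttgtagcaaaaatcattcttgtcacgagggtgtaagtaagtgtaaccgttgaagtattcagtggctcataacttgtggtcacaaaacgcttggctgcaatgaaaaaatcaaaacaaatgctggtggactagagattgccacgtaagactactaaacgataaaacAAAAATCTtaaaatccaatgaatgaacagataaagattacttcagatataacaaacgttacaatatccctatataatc
LHCB1.3: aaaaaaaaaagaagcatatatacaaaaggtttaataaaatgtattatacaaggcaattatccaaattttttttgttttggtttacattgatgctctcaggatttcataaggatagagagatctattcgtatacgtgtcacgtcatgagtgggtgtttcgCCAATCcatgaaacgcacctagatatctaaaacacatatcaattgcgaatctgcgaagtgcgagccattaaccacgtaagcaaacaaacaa
LHCB1.5: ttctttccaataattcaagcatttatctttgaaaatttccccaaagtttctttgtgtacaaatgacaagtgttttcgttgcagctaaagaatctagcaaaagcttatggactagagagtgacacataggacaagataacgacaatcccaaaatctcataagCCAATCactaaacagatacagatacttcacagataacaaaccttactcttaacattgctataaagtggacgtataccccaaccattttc
LHCA4: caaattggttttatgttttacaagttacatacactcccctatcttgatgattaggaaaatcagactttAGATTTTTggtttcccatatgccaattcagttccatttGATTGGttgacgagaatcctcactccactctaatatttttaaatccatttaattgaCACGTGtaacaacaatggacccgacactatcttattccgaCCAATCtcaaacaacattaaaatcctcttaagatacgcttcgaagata
PSAE1: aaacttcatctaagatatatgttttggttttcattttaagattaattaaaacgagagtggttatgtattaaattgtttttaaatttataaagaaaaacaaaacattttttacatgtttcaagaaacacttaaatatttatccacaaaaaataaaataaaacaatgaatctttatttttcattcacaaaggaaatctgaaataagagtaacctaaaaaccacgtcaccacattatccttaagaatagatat

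The antenna genes as a group rose more than the core genes in libraries labelled trm4b-4, and most of that excess in FPKM was LHCB1. The rise did not extend to all antenna groups. The median log2 difference was 0.040 over the 6 LHCA genes and -0.020 over the 6 minor antenna genes, against 0.093 over the core genes. Every gene of the major photosystem II antenna rose, with fold changes of 1.17 to 1.94. The core genes moved little in either direction, and most carrier and ATP synthase genes were lower. A gene was called when its limma adjusted p over the 19027 features tested was under 0.05. On this rule 34.3% of all tested features were called, 19.2% higher and 15.1% lower. Counts by role or list below are to be read against these shares. All 51 members were tested, and 26 were called higher and 15 lower (80.4% in all), with 10 not called. Fitted with no trend of variance on level, 14 were called higher and 5 lower, with 25.8% of all tested features called. Lack of overlap between the genotypes is given below as a description only. It also held for the uncalled members LHCA5, LHCB4.3, PSAE1, PSAE2 and PETC. With 2 against 2 libraries an exact two-sided permutation test cannot go below p = 0.333. The share of all features without overlap was not counted.

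That share has to be read against level, because small differences are called more readily in abundant transcripts. Among the 148 features that averaged 500 FPKM or more, 87.2% were called, and 43 of the 51 members were among those 148. Of these 43 members 38 were called (88.4%), and of the 105 other abundant features 91 were called (86.7%), shares close to each other. Size of change separated the members more. Past 1.5-fold, 5 members were higher and 0 lower, against 2.46% higher and 3.61% lower of all tested features and 3.38% higher of the 148 abundant ones. Of the 5 features that averaged 500 FPKM or more and were called at least 1.5-fold higher, 4 were members, namely LHCB1.1, LHCB1.2, LHCB1.4 and LHCB2.1, and the other was the plastid gene ATCG00220.

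**Figure D1:**
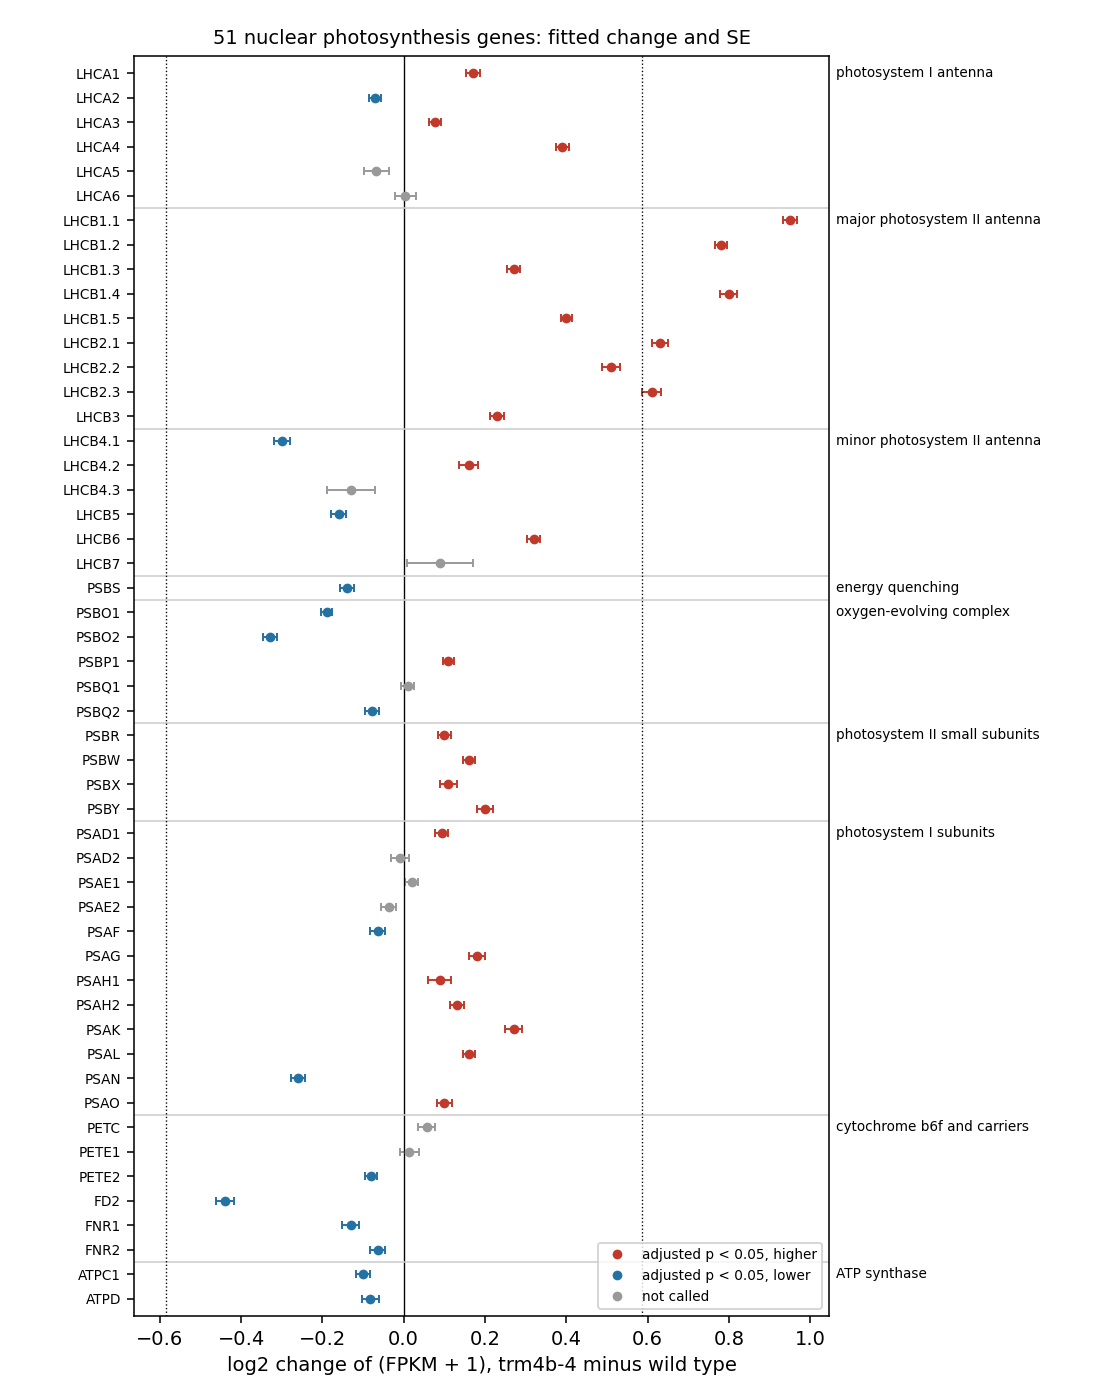
Log2 difference of each of the 51 genes (libraries labelled trm4b-4 minus wild type, log2(FPKM + 1) scale) with its standard error, grouped by role; red was called higher, blue lower and grey not called, and dotted lines mark 1.5-fold. The 9 major photosystem II antenna genes lie between 0.23 and 0.95, while the 21 core genes lie between -0.33 and 0.27.

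LHCB1 proteins are the bulk of the trimeric antenna, and their transcripts were the most abundant of all. LHCB1.3 ranked first and LHCB1.5 second among all features in each of the 4 libraries. LHCB1.3 had 14630.3 and 14725 FPKM in libraries labelled trm4b-4, against 12332 and 11950.2 FPKM in wild-type libraries. LHCB1.5 had 11911 and 11814 FPKM in libraries labelled trm4b-4, against 9033 and 8966 FPKM in wild-type libraries. Both copies were higher in each library labelled trm4b-4 than in either wild-type library, with log2 differences of 0.27 (SE 0.017, limma adjusted p = 9.57e-06) and 0.40 (SE 0.013, limma adjusted p = 2.45e-07). Quantile normalization gives genes of equal rank in all libraries equal values, so under it neither copy could differ.

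The less abundant LHCB1 copies rose further. LHCB1.2 had 5062 and 5099 FPKM in libraries labelled trm4b-4, against 2969 and 2951 FPKM in wild-type libraries. LHCB1.4 had 2239 and 2303 FPKM in libraries labelled trm4b-4, against 1318 and 1281 FPKM in wild-type libraries. LHCB1.1 had 1609 and 1617 FPKM in libraries labelled trm4b-4, against 843 and 824 FPKM in wild-type libraries. The genotypes did not overlap for any of the 3, and the log2 differences were 0.78 (SE 0.014, limma adjusted p = 7.95e-09) for LHCB1.2, 0.80 (SE 0.021, limma adjusted p = 5.65e-08) for LHCB1.4 and 0.95 (SE 0.018, limma adjusted p = 8.68e-09) for LHCB1.1. Ordered by wild-type level, the copies ran LHCB1.3, LHCB1.5, LHCB1.2, LHCB1.4, LHCB1.1, and ordered by fold change they ran exactly the other way, a description over 5 genes with no test.

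The make-up of the family differed with genotype. LHCB1.3 supplied 41.3% ± 0.10 of LHCB1 FPKM in libraries labelled trm4b-4, against 46.3% ± 0.38 in wild-type libraries (SD, n = 2 each). LHCB1.2 supplied 14.3% ± 0.042 in libraries labelled trm4b-4 and 11.3% ± 0.11 in wild-type libraries (SD, n = 2 each), and LHCB1.1 supplied 4.54% ± 0.0079 in libraries labelled trm4b-4 and 3.18% ± 0.0065 in wild-type libraries. The share of LHCB1.5 moved least, at 33.4% ± 0.26 in libraries labelled trm4b-4 and 34.3% ± 0.30 in wild-type libraries (SD, n = 2 each).

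Family sums depend less than single copies on how reads were split between copies of 1 sum. They are not free of it, because FPKM divides by gene length. The lengths read from the values were 1176, 1020 and 1044 bases for LHCB1.1, LHCB1.2 and LHCB1.3. How reads matching several copies were counted, which is not given, can also change a sum. The 3 genes on chromosome 1 summed to 21371 ± 99.4 FPKM in libraries labelled trm4b-4 and 15934 ± 296 FPKM in wild-type libraries (SD, n = 2 each), a ratio of 1.34. The pair on chromosome 2 summed to 14134 ± 23.4 FPKM in libraries labelled trm4b-4 and 10299 ± 73.4 FPKM in wild-type libraries (SD, n = 2 each), a ratio of 1.37. The 2 clusters, on different chromosomes and sharing no 100-base window, thus stood at nearly the same ratio although their copies spanned 1.21 to 1.94-fold. An annotated gene on the opposite strand, AT2G08665, covers all 1045 bases of LHCB1.5, and without the strand setting of the counting its reads cannot be told apart from those of LHCB1.5.

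**Figure D2:**
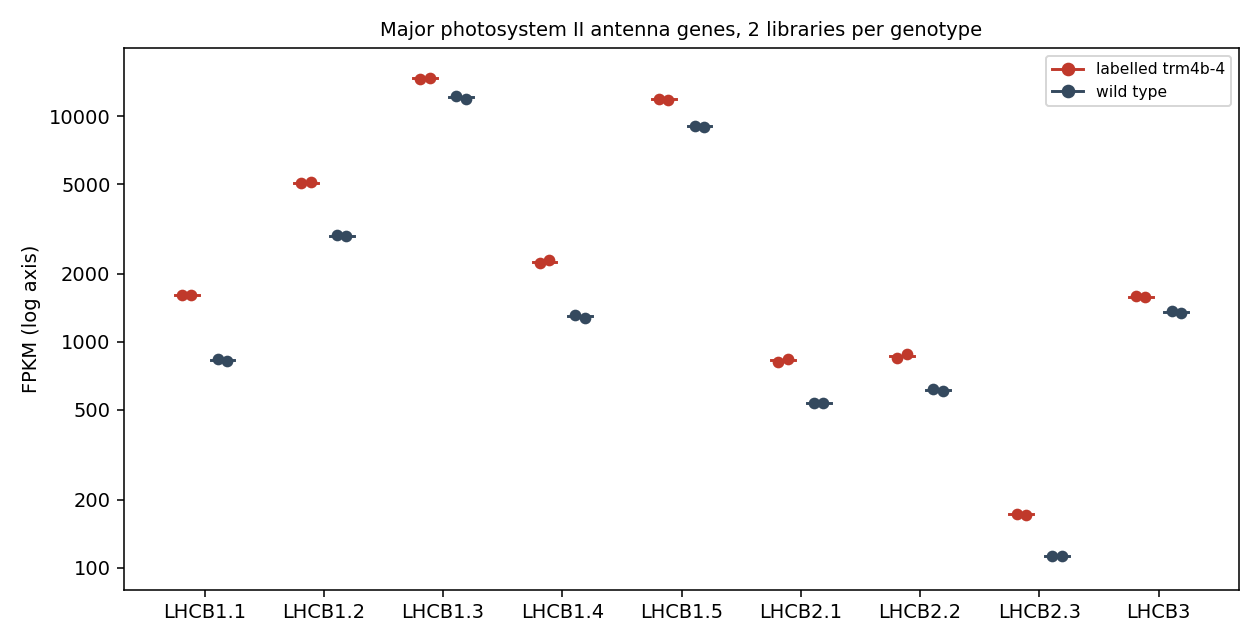
FPKM (log axis) of the 9 major photosystem II antenna genes, 1 point per library and a line at the mean of 2, with libraries labelled trm4b-4 in red, left of wild-type libraries in dark blue. For each gene both red points lie above both blue ones, with the widest gap in LHCB1.1 and the narrowest in LHCB3.

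LHCB2, the trimer subunit whose phosphorylation drives state transitions, rose in all 3 copies. LHCB2.1 had 819 and 843 FPKM in libraries labelled trm4b-4, against 539 and 535 FPKM in wild-type libraries. LHCB2.2 had 854 and 889 FPKM in libraries labelled trm4b-4, against 617 and 609.7 FPKM in wild-type libraries. LHCB2.3, the copy with no shared window, had 173 and 172 FPKM in libraries labelled trm4b-4, against 112 and 113 FPKM in wild-type libraries. All 3 rose with no overlap, with log2 differences of 0.63 (SE 0.020, limma adjusted p = 2.27e-07), 0.51 (SE 0.023, limma adjusted p = 1.66e-06) and 0.61 (SE 0.024, limma adjusted p = 7.8e-07). LHCB2.1 supplied 44.3% ± 0.072 of LHCB2 FPKM in libraries labelled trm4b-4, against 42.5% ± 0.016 in wild-type libraries, and LHCB2.2 supplied 46.5% ± 0.31 in libraries labelled trm4b-4, against 48.6% ± 0.11 in wild-type libraries (SD, n = 2 each). LHCB2.3 overlaps the gene AT3G27700 on the opposite strand over 595 bases. Summed, LHCB2 stood at 1875 ± 41.3 FPKM in libraries labelled trm4b-4 and 1263 ± 7.69 FPKM in wild-type libraries (SD, n = 2 each), a ratio of 1.48.

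LHCB3 rose least of the major antenna. It had 1593 and 1576 FPKM in libraries labelled trm4b-4, against 1369 and 1341 FPKM in wild-type libraries, with no overlap and a log2 difference of 0.23 (SE 0.017, limma adjusted p = 3.52e-05).

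The linker antennae of photosystem II went both ways, with 2 of the 6 minor antenna genes higher, 2 lower and 2 not called, and a median log2 difference of -0.020 against 0.031 over all tested features. LHCB6, which links the outer trimers to the core, had 2715 and 2711 FPKM in libraries labelled trm4b-4, against 2188 and 2148 FPKM in wild-type libraries (log2 difference 0.32, SE 0.016, limma adjusted p = 2.63e-06). LHCB5, the linker beside the inner core antenna, had 2808 and 2756 FPKM in libraries labelled trm4b-4, against 3148 and 3058 FPKM in wild-type libraries (log2 difference -0.16, SE 0.019, limma adjusted p = 4.13e-04). LHCB6 rose and LHCB5 fell, each with no overlap between the genotypes, and LHCB6 overlaps the gene AT1G05207 on the opposite strand over 358 bases.

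The LHCB4 copies, which encode 1 kind of linker, moved in opposite directions. LHCB4.1 had 2341 and 2305 FPKM in libraries labelled trm4b-4, against 2913 and 2806 FPKM in wild-type libraries (log2 difference -0.30, SE 0.020, limma adjusted p = 1.75e-05). LHCB4.2 had 1363 and 1328 FPKM in libraries labelled trm4b-4, against 1227 and 1182 FPKM in wild-type libraries (log2 difference 0.16, SE 0.023, limma adjusted p = 9.88e-04). The ratio of LHCB4.1 to LHCB4.2 was 1.73 ± 0.012 in libraries labelled trm4b-4, against 2.37 ± 0.00018 in wild-type libraries (SD, n = 2 each). LHCB4.3 and LHCB7, both rare antenna genes, were near 10 FPKM and neither was called. LHCB4.3 had 13.4 and 12.4 FPKM in libraries labelled trm4b-4, against 14.1 and 14.3 FPKM in wild-type libraries (limma adjusted p = 0.139), and LHCB7 had 11.4 and 11.1 FPKM in libraries labelled trm4b-4, against 9.66 and 11.4 FPKM in wild-type libraries (limma adjusted p = 0.441).

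In the photosystem I antenna 1 gene stood out. LHCA4, which pairs with LHCA1 and holds the far-red chlorophylls, had 3595 and 3559 FPKM in libraries labelled trm4b-4, against 2761 and 2715 FPKM in wild-type libraries (log2 difference 0.39, SE 0.016, limma adjusted p = 9.1e-07). Its partner LHCA1 had 3354 and 3373 FPKM in libraries labelled trm4b-4, against 3035 and 2959 FPKM in wild-type libraries (log2 difference 0.17, SE 0.017, limma adjusted p = 1.59e-04). Both rose, and the ratio of LHCA4 to LHCA1 was 1.06 ± 0.012 in libraries labelled trm4b-4, against 0.914 ± 0.0057 in wild-type libraries (SD, n = 2 each), so the order of the 2 transcripts was reversed.

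The other dimer of the belt, LHCA2 with LHCA3, split. LHCA3 had 2868 and 2866 FPKM in libraries labelled trm4b-4, against 2731 and 2706 FPKM in wild-type libraries (log2 difference 0.077, SE 0.014, limma adjusted p = 0.0044). LHCA2 had 3017 and 2999 FPKM in libraries labelled trm4b-4, against 3185 and 3133 FPKM in wild-type libraries (log2 difference -0.071, SE 0.015, limma adjusted p = 0.00859). The FPKM ratios were 1.05 and 0.952, with groups that did not overlap. Fitted with no trend of variance on level, both calls were lost (limma adjusted p = 0.243 for LHCA3 and 0.281 for LHCA2). The call of LHCA2 was also lost with no filter (limma adjusted p = 0.0671). LHCA5 and LHCA6, which attach photosystem I to the NDH complex, were not called (limma adjusted p = 0.129 and 0.927). LHCA5 had 79.8 and 78.6 FPKM in libraries labelled trm4b-4 and 84.5 and 81.6 FPKM in wild-type libraries, and LHCA6 had 133 and 130.3 FPKM in libraries labelled trm4b-4 and 133 and 130.0 FPKM in wild-type libraries.

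PSBS had 678 and 679 FPKM in libraries labelled trm4b-4, against 748 and 748 FPKM in wild-type libraries with no overlap, a ratio of 0.907 (log2 difference -0.14, SE 0.017, limma adjusted p = 4.3e-04). Its direction was opposite to that of the major antenna.

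The oxygen-evolving complex, the lumenal cap of photosystem II, gave 1 gene higher, 3 lower and 1 not called. PSBO stabilises the manganese cluster, and both copies fell. PSBO1 had 2287 and 2293 FPKM in libraries labelled trm4b-4, against 2612 and 2609 FPKM in wild-type libraries (log2 difference -0.19, SE 0.014, limma adjusted p = 3.22e-05). PSBO2 had 648 and 651 FPKM in libraries labelled trm4b-4, against 821 and 812 FPKM in wild-type libraries (log2 difference -0.33, SE 0.017, limma adjusted p = 3.93e-06). The PSBO sum was 2940 ± 5.09 FPKM in libraries labelled trm4b-4 and 3427 ± 8.36 FPKM in wild-type libraries (SD, n = 2 each), a ratio of 0.858, and PSBO1 was 3.53-fold PSBO2 in libraries labelled trm4b-4 and 3.20-fold in wild-type libraries.

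The outer proteins of the cap did not follow PSBO as a block. PSBP1 had 2807 and 2809 FPKM in libraries labelled trm4b-4, against 2604 and 2601 FPKM in wild-type libraries (log2 difference 0.11, SE 0.014, limma adjusted p = 6.2e-04). PSBQ2 had 1446 and 1433 FPKM in libraries labelled trm4b-4, against 1535 and 1506 FPKM in wild-type libraries (log2 difference -0.078, SE 0.017, limma adjusted p = 0.00863). PSBQ1 had 1509.5 and 1502 FPKM in libraries labelled trm4b-4, against 1506 and 1486 FPKM in wild-type libraries, and was not called (limma adjusted p = 0.685). PSBP1 rose, PSBQ2 fell, and the PSBQ1 groups overlapped.

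All 4 small photosystem II subunits of the set rose slightly, with log2 differences of 0.10 to 0.20. PSBTN, a photosystem II subunit listed outside the set, went the other way. It had 978 and 1002 FPKM in libraries labelled trm4b-4, against 1102 and 1115 FPKM in wild-type libraries (log2 difference -0.16, SE 0.019, limma adjusted p = 3.08e-04). PSBR, which helps to anchor the cap and ranked 4 of all features in every library, had 6948 and 7119.5 FPKM in libraries labelled trm4b-4, against 6529.6 and 6587 FPKM in wild-type libraries (log2 difference 0.10, SE 0.016, limma adjusted p = 0.00178). PSBW, which steadies the supercomplex with its antenna, had 1879 and 1862 FPKM in libraries labelled trm4b-4, against 1681 and 1677 FPKM in wild-type libraries (log2 difference 0.16, SE 0.015, limma adjusted p = 1.38e-04). PSBY had 798 and 784 FPKM in libraries labelled trm4b-4, against 679.9 and 696 FPKM in wild-type libraries (log2 difference 0.20, SE 0.020, limma adjusted p = 1.44e-04). For each of the 3 both libraries labelled trm4b-4 were above both wild-type libraries, and so they were for PSBX.

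The 12 nuclear genes of the photosystem I core gave 7 higher, 2 lower and 3 not called, with a median log2 difference of 0.091. The largest rises were in PSAK, PSAG and PSAL. PSAK, at the edge near the belt, had 2175 and 2245 FPKM in libraries labelled trm4b-4, against 1812 and 1850.0 FPKM in wild-type libraries (log2 difference 0.27, SE 0.020, limma adjusted p = 2.84e-05). PSAG, which binds the opposite end of the belt, had 2270.5 and 2299 FPKM in libraries labelled trm4b-4, against 1981 and 2046 FPKM in wild-type libraries (log2 difference 0.18, SE 0.019, limma adjusted p = 2.06e-04). PSAL, on the side where the mobile antenna docks, had 2078 and 2092 FPKM in libraries labelled trm4b-4, against 1875 and 1858 FPKM in wild-type libraries (log2 difference 0.16, SE 0.015, limma adjusted p = 1.19e-04). All 3 rose with no overlap, although PSAG overlaps AT1G55673 on the opposite strand over 479 bases.

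PSAO and PSAH lie on that docking side too. PSAO, the most abundant of the 12, had 2934 and 3029 FPKM in libraries labelled trm4b-4, against 2771 and 2775 FPKM in wild-type libraries (log2 difference 0.10, SE 0.018, limma adjusted p = 0.00294). PSAH2 had 938 and 936 FPKM in libraries labelled trm4b-4, against 858 and 852 FPKM in wild-type libraries (log2 difference 0.13, SE 0.017, limma adjusted p = 5.28e-04). PSAH1 had 417 and 436 FPKM in libraries labelled trm4b-4, against 393 and 409.9 FPKM in wild-type libraries (log2 difference 0.088, SE 0.029, limma adjusted p = 0.0465), a call lost without trm4b-4 library 2 (adjusted p = 0.218) or wild-type library 1 (adjusted p = 0.223). All 3 rose, and AT3G16130 overlaps PSAH1 on the opposite strand over 788 bases.

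The lumenal, plastocyanin-facing subunits of photosystem I were lower. PSAN had 1119 and 1121 FPKM in libraries labelled trm4b-4, against 1356 and 1326 FPKM in wild-type libraries (log2 difference -0.26, SE 0.018, limma adjusted p = 1.68e-05). PSAF had 1563 and 1614 FPKM in libraries labelled trm4b-4, against 1661 and 1660.2 FPKM in wild-type libraries (log2 difference -0.064, SE 0.019, limma adjusted p = 0.0324). PSAN fell clearly, while the call of PSAF was lost without trm4b-4 library 1 (limma adjusted p = 0.185), wild-type library 1 (limma adjusted p = 0.0876) or wild-type library 2 (limma adjusted p = 0.0862).

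The stromal ferredoxin-docking subunits moved little, though PSAD1 rose about as much as PSAH1 (log2 difference 0.088). PSAD1 had 1824 and 1852 FPKM in libraries labelled trm4b-4, against 1718 and 1728 FPKM in wild-type libraries (log2 difference 0.093, SE 0.016, limma adjusted p = 0.0028), whereas its copy PSAD2 had 877 and 859 FPKM in libraries labelled trm4b-4 and 859 and 889 FPKM in wild-type libraries and was not called (limma adjusted p = 0.751). PSAE1 had 1943 and 1972 FPKM in libraries labelled trm4b-4 and 1935 and 1926 FPKM in wild-type libraries (limma adjusted p = 0.365). PSAE2 had 805 and 795 FPKM in libraries labelled trm4b-4 and 827 and 815 FPKM in wild-type libraries (limma adjusted p = 0.15). Of these 4 genes PSAD1 alone was called, and a missed threshold does not show that the other 3 were equal.

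Electron carriers and the ATP synthase gave 0 higher and 6 lower of the 8 genes in the set (75.0% called). FD1, a ferredoxin gene listed outside the set, was higher. It had 451.5 and 453.4 FPKM in libraries labelled trm4b-4, against 419.1 and 428.5 FPKM in wild-type libraries (log2 difference 0.094, SE 0.020, limma adjusted p = 0.00799). Of all tested features 15.1% were called lower, and of those that averaged 500 FPKM or more 87.2% were called in either direction. Fitted with no trend of variance on level, FD2 alone of the 6 kept its call (limma adjusted p = 0.00776). FD2, the main leaf ferredoxin, fell furthest of all 51 genes. It had 719 and 728 FPKM in libraries labelled trm4b-4, against 958 and 1000.1 FPKM in wild-type libraries, a ratio of 0.739 (log2 difference -0.44, SE 0.023, limma adjusted p = 4.05e-06). FNR1, which passes electrons from ferredoxin to NADP, had 474 and 461 FPKM in libraries labelled trm4b-4, against 512 and 512 FPKM in wild-type libraries (log2 difference -0.13, SE 0.021, limma adjusted p = 0.00187). FNR2 had 944 and 919.6 FPKM in libraries labelled trm4b-4, against 978 and 969.6 FPKM in wild-type libraries (log2 difference -0.064, SE 0.019, limma adjusted p = 0.0324). All 3 fell, FD2 by the most, and the call of FNR2 was lost without trm4b-4 library 2 (limma adjusted p = 0.175), wild-type library 1 (limma adjusted p = 0.119) or wild-type library 2 (limma adjusted p = 0.0668).

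Plastocyanin carries electrons to photosystem I. Its main gene PETE2 had 2062 and 2064 FPKM in libraries labelled trm4b-4, against 2185 and 2178 FPKM in wild-type libraries (log2 difference -0.081, SE 0.015, limma adjusted p = 0.0036). PETE1 had 249.6 and 246 FPKM in libraries labelled trm4b-4 and 249 and 242 FPKM in wild-type libraries (limma adjusted p = 0.686). PETC, the Rieske protein of the cytochrome complex, had 964 and 937 FPKM in libraries labelled trm4b-4 and 921 and 907 FPKM in wild-type libraries (limma adjusted p = 0.064). PETE2 fell and the other pair was not called. The ATP synthase subunits ATPC1 and ATPD had log2 differences of -0.10 (SE 0.018, limma adjusted p = 0.00333) and -0.082 (SE 0.020, limma adjusted p = 0.0148). ATPC1 had 639 and 633 FPKM in libraries labelled trm4b-4, against 684 and 678 FPKM in wild-type libraries, and ATPD had 579 and 569 FPKM in libraries labelled trm4b-4, against 614 and 601 FPKM in wild-type libraries. The call of ATPD was lost without trm4b-4 library 2 (limma adjusted p = 0.0755) or wild-type library 1 (limma adjusted p = 0.0819).

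Set against each other, antenna and core differed in how far they shifted. The antenna genes had a median log2 difference of 0.23, the core genes 0.093 and all tested features 0.031. Under quantile normalization the medians were 0.11 for antenna and 0.069 for core genes. Rescaled by the median of ratios, they were 0.19 and 0.061. Summed, the 21 antenna genes reached 61178 ± 13.8 FPKM in libraries labelled trm4b-4 and 50037 ± 739 FPKM in wild-type libraries (SD, n = 2 each), a ratio of 1.22. The 21 core genes reached 39363 ± 365 FPKM in libraries labelled trm4b-4 and 37800 ± 88.6 FPKM in wild-type libraries (SD, n = 2 each), a ratio of 1.04. The sum of antenna over that of core was 1.56 and 1.54 in libraries labelled trm4b-4, against 1.34 and 1.31 in wild-type libraries. The groups did not overlap, and the exact two-sided permutation test gave p = 0.333, the smallest that 2 against 2 libraries allow.

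Most of this contrast in summed FPKM was LHCB1. Without it the ratio of antenna to core was 0.658 and 0.646 in libraries labelled trm4b-4, against 0.638 and 0.622 in wild-type libraries, which is still without overlap but by a small margin. LHCB1 over the 9 nuclear photosystem II core genes was 1.76 and 1.75 in libraries labelled trm4b-4, against 1.35 and 1.32 in wild-type libraries. LHCA over the 12 photosystem I core genes was 0.689 and 0.676 in libraries labelled trm4b-4, against 0.661 and 0.647 in wild-type libraries. By medians photosystem I ran the other way, with a median log2 difference of 0.040 over the 6 LHCA genes and 0.091 over the 12 core genes. The ratio of LHCB1 to photosystem II core moved much further than that of LHCA to photosystem I core, a difference that was not tested. The 2 ratios are not alike, since the second takes all 6 LHCA genes. The first leaves out LHCB2, LHCB3 and the minor antenna, whose FPKM ratios between the genotypes were 1.48, 1.17 and 0.982.

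**Figure D3:**
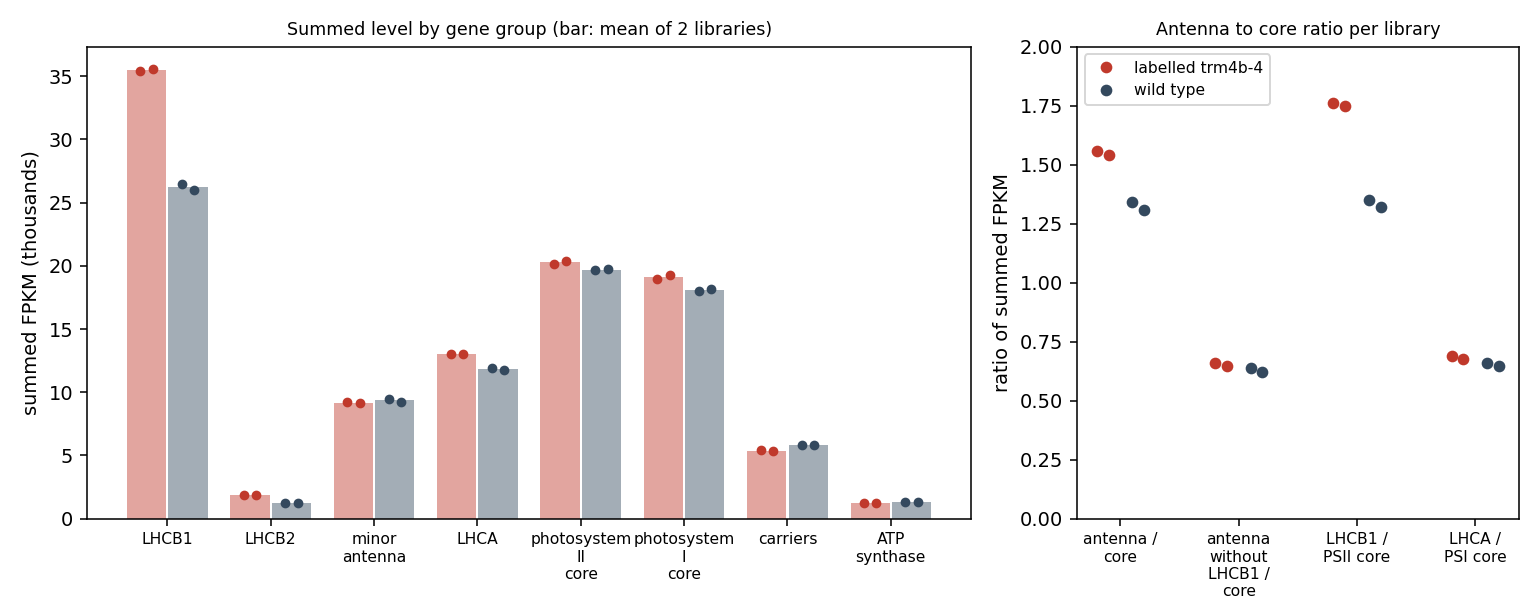
Left, summed FPKM of gene groups, with bars at the mean of 2 libraries and 1 point per library; right, ratios of such sums in each library, with libraries labelled trm4b-4 in red, left of wild-type libraries in dark blue. The ratio of antenna to core is 1.56 and 1.54 in libraries labelled trm4b-4, against 1.34 and 1.31 in wild-type libraries, and without LHCB1 the points lie close together.

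The LHCB1 excess of 9272 FPKM made up most of the 11141 FPKM by which the antenna sum was higher. The 51 genes made up 14.7% ± 0.038 of all FPKM in libraries labelled trm4b-4 and 13.1% ± 0.098 in wild-type libraries (SD, n = 2 each). By level 27 of the 51 members were among the 50 most abundant features and 37 among the first 100. In whole seedlings a larger share of green cells and more of a transcript per green cell cannot be told apart from these values.

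Upstream motifs were counted in the 250 bases before the start, and those in this paragraph differed little between antenna and core promoters. CACGTG was in 19.6% of the 51 promoters and 5.40% of the 37883 promoters in the annotation, and in 23.8% of antenna and 19.0% of core promoters. GATAAG, the I-box core, was in 23.5% of members and 12.7% of all promoters. By group it was in 19.0% of antenna, 23.8% of core and 37.5% of carrier and ATP synthase promoters. The clock-factor sequences were less common, with AAAAATCT in 9.80% of members and 6.11% of all, AACAATCT in 1.96% and 1.90%, and AAAATATCT, the evening element core, in 3.92% and 2.11%. No motif contains another, and both strands were searched.

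CCAATC, a motif added after the values had been seen, was in 10 of 21 antenna promoters and 1 of 21 core promoters, against 10.5% of all promoters. It was also in 3 of the 8 carrier and ATP synthase promoters (37.5%), a group in which no gene was called higher. In the sequences printed above it lies 91 to 86 bases before the start of LHCB1.3 and 89 to 84 before that of LHCB1.5, and LHCA4 holds it in both orientations. LHCB1.1 instead holds AAAAATCT at 78 to 71 bases before its start, as LHCB1.4 does at 18 to 11. LHCB1.1, LHCB1.2 and LHCB1.4, the copies that rose more, lack CCAATC in this window, but all 3 LHCB2 promoters hold it. A match is a description of letters, not a bound site.

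Transcripts of factors known to act on these genes also differed. GLK1 and GLK2 switch on antenna and chlorophyll synthesis genes, and both rose. GLK2 had 79.3 and 80.1 FPKM in libraries labelled trm4b-4, against 48.2 and 47.1 FPKM in wild-type libraries (log2 difference 0.73, SE 0.032, limma adjusted p = 1.29e-06). GLK1 had 100.1 and 98.3 FPKM in libraries labelled trm4b-4, against 82.8 and 80.7 FPKM in wild-type libraries (log2 difference 0.28, SE 0.029, limma adjusted p = 2.16e-04). GUN4, which promotes magnesium chelation in chlorophyll synthesis, rose as well, to 90.9 and 90.7 FPKM in libraries labelled trm4b-4, against 71.9 and 68.3 FPKM in wild-type libraries (limma adjusted p = 9.24e-05).

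Of the 4 phytochrome-interacting factors listed, which hold back greening in the dark, PIF1, PIF4 and PIF5 were lower. PIF3 was not called, with overlapping groups and a log2 difference of 0.050 (SE 0.067, limma adjusted p = 0.603). PIF5 had 49.6 and 50.5 FPKM in libraries labelled trm4b-4, against 63.5 and 65.8 FPKM in wild-type libraries (log2 difference -0.36, SE 0.034, limma adjusted p = 1.16e-04). PIF4 had 62.1 and 66.4 FPKM in libraries labelled trm4b-4, against 81.5 and 79.3 FPKM in wild-type libraries (log2 difference -0.32, SE 0.038, limma adjusted p = 4.36e-04). Of the 12 regulators listed, 7 were higher, 3 lower and 2 not called, with a median log2 difference of 0.25. Of all tested features 34.3% were called, 19.2% higher and 15.1% lower. The list was chosen with earlier results of these data known. The part of these regulators in the antenna result was not tested.

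Clock genes, which gate LHCB transcription by time of day, differed too. CCA1, a morning factor that binds LHCB1 promoters, had 5.32 and 5.33 FPKM in libraries labelled trm4b-4, against 2.45 and 2.25 FPKM in wild-type libraries (log2 difference 0.92, SE 0.093, limma adjusted p = 1.67e-04). TOC1, an evening factor, had 78.2 and 78.5 FPKM in libraries labelled trm4b-4, against 95.1 and 96.7 FPKM in wild-type libraries (log2 difference -0.29, SE 0.028, limma adjusted p = 1.33e-04). Of 9 clock genes tested of 10 listed, 6 were higher and 3 lower, and LHY was under the filter. Unlike TOC1, GI was among the 6. It had 61.2 and 60.5 FPKM in libraries labelled trm4b-4, against 47.2 and 49.4 FPKM in wild-type libraries (log2 difference 0.33, SE 0.036, limma adjusted p = 2.61e-04). PRR5 was higher too (log2 difference 0.32, SE 0.043, limma adjusted p = 7.7e-04). PRR9, among the 6, reached 1 FPKM in libraries labelled trm4b-4 alone and so passed the filter only through the group where it was high. The part of clock phase or harvest time in the antenna result was not tested.

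Other genes listed with the thylakoid did not follow the antenna as a group. Of 14 such genes 2 were higher, 7 lower and 5 not called, with a median log2 difference of -0.085. FD1, which was higher, and PSBTN, which was lower, belong to this list and are given above. CURT1B, which bends grana margins, had 680.2 and 673 FPKM in libraries labelled trm4b-4, against 597 and 601 FPKM in wild-type libraries (limma adjusted p = 1.7e-04). PDE334, an ATP synthase subunit, had 560.1 and 570.1 FPKM in libraries labelled trm4b-4, against 649 and 646 FPKM in wild-type libraries (limma adjusted p = 1.14e-04). CURT1B rose and PDE334 fell.

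Of 7 import and assembly factors 1 was higher, 0 lower and 6 not called. The list holds HCF173 and HCF136, which serve photosystem II core synthesis and assembly rather than the antenna, and both were among the 6. The gene called was CPSRP54, a subunit of the particle that escorts antenna proteins, at 95.4 and 94.0 FPKM in libraries labelled trm4b-4, against 79.7 and 82.2 FPKM in wild-type libraries (log2 difference 0.22, SE 0.030, limma adjusted p = 7.54e-04). Of 8 genes of antenna phosphorylation and energy quenching 3 were higher, 1 lower and 4 not called. STN7, the kinase of the mobile antenna, had 51.6 and 50.3 FPKM in libraries labelled trm4b-4, against 46.3 and 44.7 FPKM in wild-type libraries (limma adjusted p = 0.0109). TAP38, the opposing phosphatase, had 154 and 155 FPKM in libraries labelled trm4b-4, against 166 and 163 FPKM in wild-type libraries (limma adjusted p = 0.0212). STN7 rose and TAP38 fell.

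Of 6 relatives of the antenna that bind pigment in stress or biogenesis, 4 were higher, 1 lower and 1 not called, with a median log2 difference of 0.18. ELIP2, among the 4, reached 1 FPKM in 1 wild-type library, so it needed the libraries labelled trm4b-4, where it was high, to pass the filter. ELIP1, an early light-induced protein, had 8.05 and 9.86 FPKM in libraries labelled trm4b-4, against 5.49 and 4.66 FPKM in wild-type libraries (log2 difference 0.71, SE 0.11, limma adjusted p = 0.00166). OHP2, which serves early photosystem assembly, had 97.4 and 95.0 FPKM in libraries labelled trm4b-4, against 84.4 and 85.5 FPKM in wild-type libraries (log2 difference 0.18, SE 0.029, limma adjusted p = 0.00206). Both rose with no overlap.

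**Figure D4:**
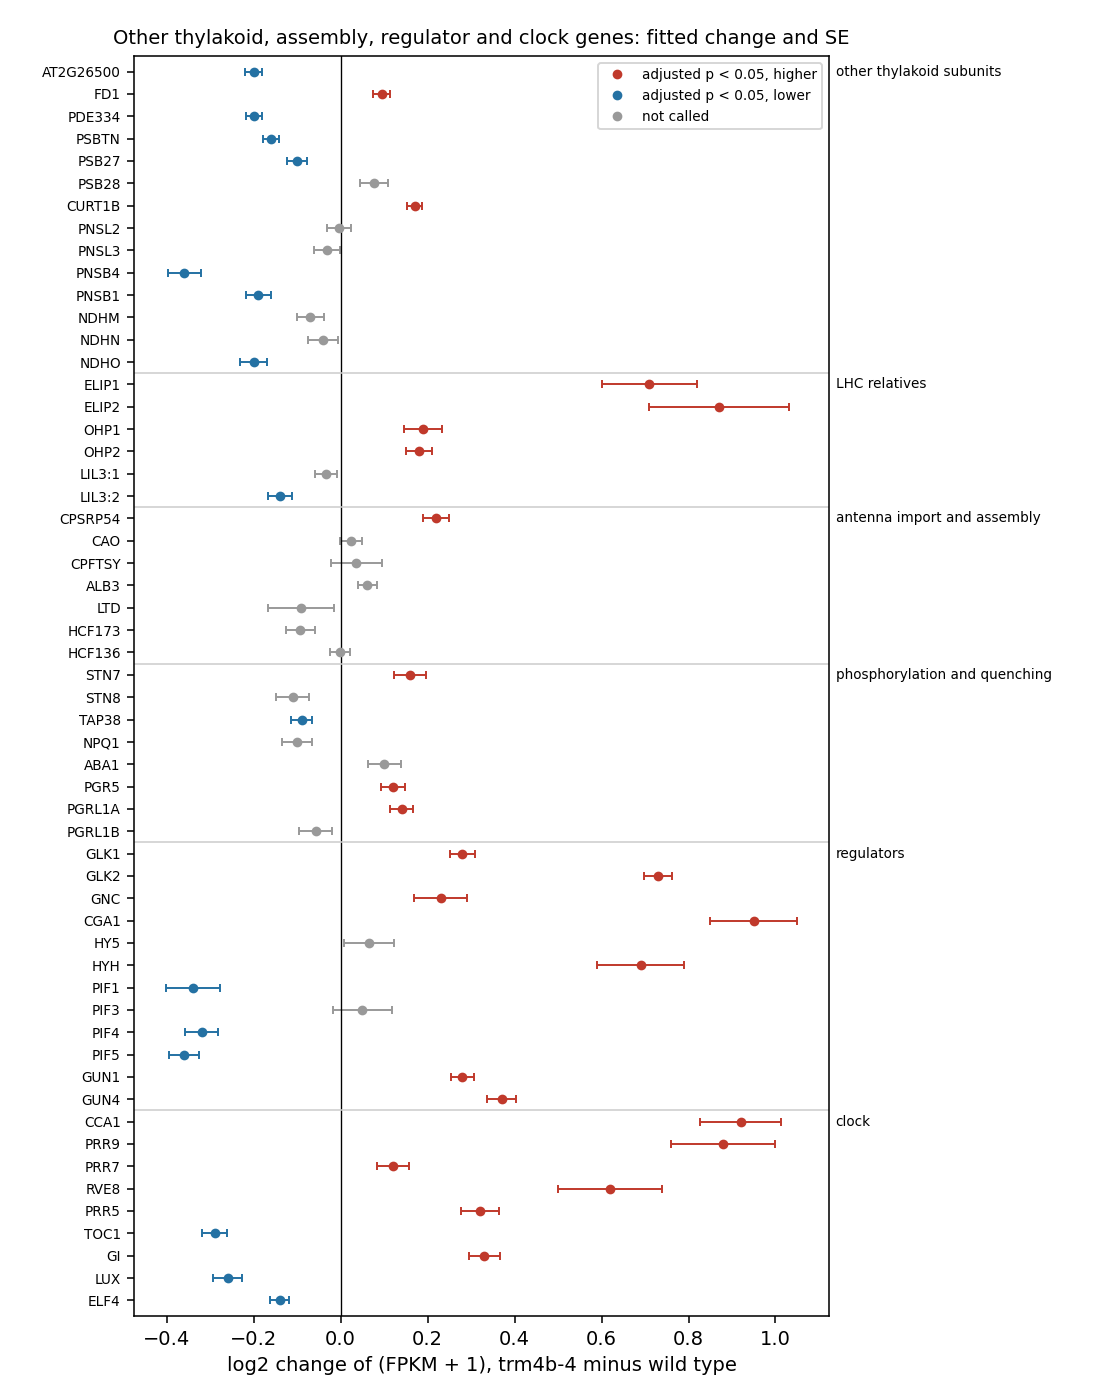
Log2 difference (libraries labelled trm4b-4 minus wild type, log2(FPKM + 1) scale) with its standard error for genes of 6 related lists; red was called higher, blue lower and grey not called. Regulators lie between -0.36 and 0.95, and import and assembly factors between -0.093 and 0.22.

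Markers of other tissues moved with genotype in a mixed way. Of 10 root markers tested of 11, 4 were higher, 2 lower and 4 not called, and the 11 summed to 1460.1 and 1460.0 FPKM in libraries labelled trm4b-4, against 1751 and 1732 FPKM in wild-type libraries. That sum was mostly PYK10, a root beta-glucosidase, at 1386 and 1380.1 FPKM in libraries labelled trm4b-4, against 1679.9 and 1662 FPKM in wild-type libraries, while PRP3, a root hair wall protein, was higher (log2 difference 0.50, limma adjusted p = 3.83e-04). Of 8 seed markers 4 passed the filter and were called higher, but CRA1, OLEO2 and EM1 reached 1 FPKM in libraries labelled trm4b-4 alone, so the filter fixed their direction and the count supports nothing. EM6 was above 1 FPKM in all 4 libraries and had a log2 difference of 1.04 (SE 0.10, limma adjusted p = 1.45e-04). The 8 seed markers summed to 13.8 and 13.6 FPKM in libraries labelled trm4b-4, against 3.36 and 2.86 FPKM in wild-type libraries. The seed storage genes CRB and SESA1 were listed at 0 in all libraries. The part of tissue make-up in the antenna and core results was not tested.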

How the data were processed

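Poly-A RNA from whole seedlings was sequenced in 2 libraries labelled trm4b-4 and 2 wild-type libraries, made with a directional kit, per the labels' protocols. The deposited files hold 1 FPKM value per feature and library, with the unit read from the values by the way they resolve into whole fragments, gene lengths and library totals. TopHat2 2.0.12, Cufflinks 2.1.1, HTSeq 0.6.1, Cuffdiff and TAIR10 are named per the submitters' processing notes, while the sources used here do not give the role of each tool, the strand setting or how multiply matching reads were handled. The genotype field spells the allele tm4b-4 and the titles trm4b-4, which were taken as 1 group.

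From the deposited FPKM, log2(FPKM + 1) was fitted in limma 3.58.1 (R 4.3.3, empirical Bayes with a trend on level) over the 19027 features with at least 1 FPKM in at least 2 libraries. P-values were two-sided, with Benjamini-Hochberg adjustment over all 19027. A fold change is on the log2(value + 1) scale and understates that of rare transcripts. FPKM ratios were taken from group means. The genes of the main antenna, core and carrier families, the 8 pathway and marker lists and the rule for naming genes were chosen with earlier results of these data known. Named in full are the most abundant member of each role, up to 3 members per direction and role with the smallest p, paralog pairs, and from each list up to 2 genes per direction. Members, their promoters and coding sequences were taken from the RefSeq annotation of TAIR10.1, whose starts may differ from those the authors used. The fit was tested on simulated data. Alternatives were another pseudocount (0.1), no filter or one of 5 FPKM, quantile normalization, median-of-ratios rescaling, nuclear genes only, no trend, voom on recovered fragments, removal of trends with GC and length, a replicate block, and each library left out. The same-numbered libraries of the 2 genotypes did not deviate together.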

Additional observations from a re-analysis of the deposited data

How the results depend on the processing

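Of the 41 called members, 17 kept their call under all 15 alternatives and 24 lost it under at least 1, of which 22 were lost without the variance trend, where 14 were called higher and 5 lower and 4908 of all features were called. Of the 9 major photosystem II antenna genes 7 kept their call throughout, and LHCB1.3 and LHCB1.5 lost it under quantile normalization, as PSBR did, which by construction sets genes of equal rank in every library to equal values. TRM4B kept its call under all 15. The antenna median log2 difference was 0.11 under quantile normalization, 0.19 under median-of-ratios rescaling, 0.20 with GC and length trends removed and 0.20 with that and the replicate block. The core median was 0.069, 0.061, 0.061 and 0.061 under the same alternatives. With 1 library left out at a time the antenna median ran between 0.21 and 0.24, the core median between 0.082 and 0.11, members called higher between 25 and 26, members called lower between 12 and 14, and all features called between 4677 and 5254. Same-numbered libraries did not deviate together (r = -0.0434 across genes, which are not independent), a check that cannot show whether they shared a batch. The replicate block gave 27 members higher, 15 lower and 6769 features called. No called member changed sign except PSAF (0.010 under quantile normalization). Uncalled members did: PSAE1 (-0.067) under quantile normalization, LHCA6 (-0.028), PSBQ1 (-0.023), PSAE1 (-0.012) and PETE1 (-0.018) under median-of-ratios rescaling, and LHCA6 (-0.028), PSBQ1 (-0.028), PSAE1 (-0.019) and PETE1 (-0.021) with GC and length trends removed, with or without the block. With 1 library left out at a time LHCA6 ran between -0.011 and 0.019, PSBQ1 between -0.0006 and 0.020, PSAD2 between -0.035 and 0.015, PETE1 between -0.0046 and 0.032 and LHCB7 between -0.020 and 0.20. Calls were also gained: PETC higher under quantile normalization (adjusted p = 0.0364), voom (0.0048), the replicate block (0.0173) and without trm4b-4 library 2 (0.0402), PSBQ1 higher (0.0135) and PSAE1 lower (0.00217) under quantile normalization, LHCA5 (0.0405) and PSAE2 (0.0203) lower under median-of-ratios rescaling, LHCA5 lower with GC and length trends removed (0.0414), and LHCA5 (0.0311) and PSAE2 (0.0309) lower with that and the block. The cause of these shifts was not tested. With 2 libraries per genotype the spread is known only roughly.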
